A study of Mus musculus with 27 samples.

Results

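The dorsal optic stalk was compared with the axon region inside one genotype, the Smarcc1-DCT-cKO mutant, at embryonic day 14. The libraries were defined by their genotype and tissue labels and numbered 5 dorsal and 5 axon, 10 of the 27 libraries of the series. All 5 mutant embryos were Baf155 loxP/loxP (the floxed Smarcc1 gene) and carried the Dct-Cre transgene and the Z/EG reporter on a C57Bl6/J background. Both regions came from embryos of this genotype. Dct-Cre is driven by the promoter of the pigment gene Dct, so Cre acts in cells in which that promoter is or was active and the share of cells with recombined Smarcc1 was not measured here. The retinal ganglion cells that send their axons into the stalk have their cell bodies in the retina, outside both pieces. Libraries with the same replicate number were taken to come from 1 embryo, which the labels do not state, and genes were therefore tested both without and with the number as a block. Mutants 1, 2 and 3 belonged to batch A and mutants 4 and 5 to batch B. The dorsal and axon libraries of 4 control littermates without Dct-Cre stand beside the mutants where a difference between genotypes is described.

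The optic stalk is the tube of neuroepithelium that joins the optic cup to the brain. Its dorsal wall borders the retinal pigment epithelium (RPE), whose cells make melanin in melanosomes, whereas its ventral side is filled by axons of retinal ganglion cells on their way to the brain, among which stalk cells of Pax2 lineage become migrating astrocyte progenitors. An axon holds neurofilaments, microtubules, motor proteins, mitochondria and ribosomes, but its messenger RNAs are a selected part of those of its cell body. Smarcc1 encodes BAF155, a scaffold subunit of the SWI/SNF (BAF) chromatin remodelling complexes.

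Each library was made from laser-captured tissue by PCR amplification of cDNA without molecular identifiers, so counts of reads are not counts of molecules. Levels are given as counts per 1000000 counts of a library (CPM), in the order of replicates 1 to 5. The total was 14.3 ± 2.14 M counts (M for 1000000) in the dorsal and 19.1 ± 3.76 M counts in the axon libraries (SD, n = 5). Despite their lower totals, the dorsal libraries held more genes. Between 12396 and 15177 genes had at least 1 count in a dorsal library and between 9225 and 11358 in an axon library, and the groups did not overlap in either batch (exact permutation p = 0.00794, two-sided, 0.0146 adjusted over 11 library measures). The difference was 3430 genes and was 3682 genes after all libraries were thinned to the lowest total. With libraries paired by number the exact sign-flip p was 0.063 (two-sided), the smallest that 5 pairs allow. The 100 most counted genes took 20.2% ± 0.954 of the dorsal and 27.3% ± 2.23 of the axon counts (SD, n = 5). In a bulk sample, fewer cells of a type and less RNA per cell cannot be told apart.

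The targeted gene was counted in all 10 libraries. Smarcc1 stood at 94.9, 107, 2.26, 44.3 and 24.5 CPM in the dorsal and 10.1, 29, 5.64, 44.9 and 1.86 CPM in the axon libraries. The regions overlapped, and the difference did not pass (edgeR adjusted p = 0.729). Counts over the whole gene do not separate intact from recombined transcripts. Genes for the BAF subunits gave no call in edgeR, while DESeq2 called 1 higher (0 with the replicate number as a block). Of the 24 tested, 0 were called in either direction, at a median log2 difference of -0.17. At an unadjusted p under 0.05, 1 was higher and 1 lower, beside 3017 higher and 684 lower of all 15780 genes tested. Smarcc2, the paralogous scaffold, ran at 41.6, 7.09, 45.2, 23.7 and 32.5 CPM in the dorsal and 24.3, 1.83, 35.2, 36.2 and 2.22 CPM in the axon libraries. Smarca4, the ATPase of the complex, ran at 318, 206, 168, 340.2 and 177 CPM in the dorsal and 198, 33.5, 347, 198 and 350.0 CPM in the axon libraries, with axon 2 far below the other 4.

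**Figure D1:**
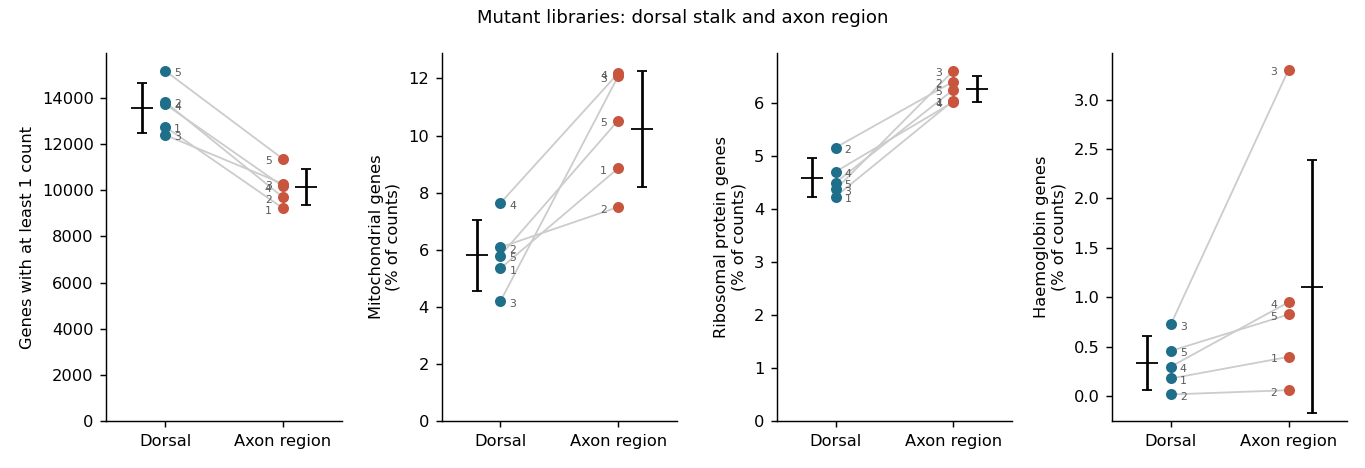
Library measures of the 5 dorsal (blue) and 5 axon (red) mutant libraries, numbered by replicate: genes with at least 1 count, and the percent of counts from mitochondrial, ribosomal protein and haemoglobin genes. Crossbars are mean ± SD (n = 5) and grey lines join libraries of the same number, and all 5 dorsal libraries lie above all 5 axon libraries for genes detected and below them for ribosomal protein genes.

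The first comparison asked which genes differed between the dorsal stalk and the axon region of the mutants. Pigment genes led those with more reads in the dorsal stalk, among them Tyr, Dct and Tspan10, together with Krt18, Ttr, Slc38a8 and Reln, and most of these had no read at all in the axon region. Genes lower in the dorsal stalk included the progenitor genes Nes, Vim and Fabp7, the cytoskeletal genes Map1b and Tmsb4x, the cyclin gene Ccnd2, 15 genes with ribosomal protein symbols, and 2 mitochondrially encoded genes. These lower genes were abundant in the axon region, with a median mean level of 1051 CPM.

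Of 15780 genes tested with edgeR's quasi-likelihood test, 25 were called higher in the dorsal stalk (0.158%) and 61 lower (0.387%), at an adjusted p under 0.05 and a log2 difference above 0.58 in size. At an unadjusted p under 0.05, 3017 of the 15780 were higher and 684 lower. Counts of list members at that level are to be read beside these, since most such genes were higher in the dorsal stalk. With the replicate number as a block, 10 were called higher (0.0634%) and 32 lower (0.203%), and 40 genes were called by both fits. Of the 25 higher genes, 16 had 0 counts in all 5 axon libraries and 3 others had between 1 and 3 counts there in all. Over all genes tested, 2616 (16.6%) had 0 counts in every axon library, against 387 (2.45%) in every dorsal library. For genes at 0, a fold is given as a lower bound, with the axon level set at 3 counts per library (a mean of 0.162 CPM). It bounds the level in the sequenced libraries and covers counting error only. It is not a bound on the fold in the tissue, since transcripts missed before sequencing were not measured. All 25 higher and 58 of the 61 lower genes had groups that did not overlap, which held for 3.12% of all genes with the dorsal libraries above and 1.06% with the dorsal libraries below. The lower genes had a median log2 difference of -1.25, with a range from -0.64 to -4.51.

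How many genes were called, and which direction held more of them, depended on the method. With DESeq2, 1371 genes were higher and 200 were lower, and with limma voom 670 and 57. Of the genes called by edgeR, DESeq2 called all 25 of the higher and 52 of the 61 lower genes in the same direction, and limma voom 22 and 21. Leaving out 1 library at a time gave 18 to 35 higher and 40 to 61 lower genes, with 40 lower genes without dorsal replicate 5, and 50 of the 86 genes were called in all 10 such fits. Within batch A alone, 10 genes were called higher and 10 lower. Within batch B, with 2 libraries per region, edgeR called 0 genes, while 834 lay under 0.05 before adjustment.

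**Figure D2:**
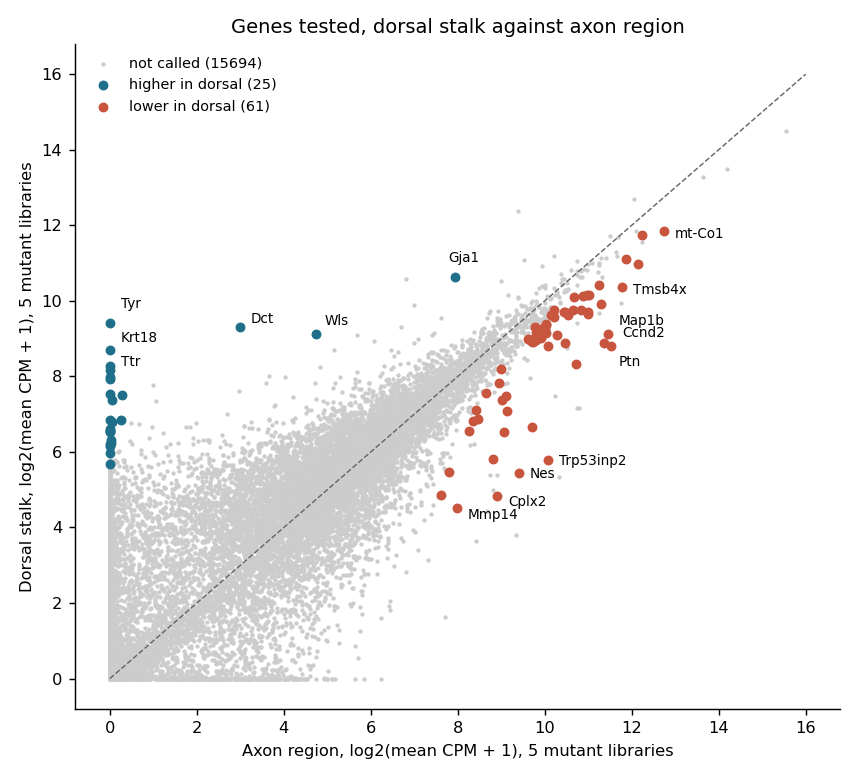
Level of each of the 15780 tested genes as log2(mean CPM + 1) over the 5 axon (x axis) and the 5 dorsal (y axis) mutant libraries, with genes called higher (blue) and lower (red) in the dorsal stalk and the diagonal dashed. Most of the 25 higher genes lie on the left edge, where 16 have 0 counts in every axon library, and the 61 lower genes lie under the diagonal at high levels.

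Genes of melanin synthesis and the melanosome made up the clearest group of dorsal genes. All 16 were tested and 5 were called higher, namely Tyr, Dct, Tspan10, Gpnmb and Rab27a, of which Tyr, Dct and Tspan10 were also called with the block. All 16 had positive differences, and 9 of 16 had groups that did not overlap. The median log2 difference was 9.10 (7.13 with genes at 0 set to their bound), beside 0.33 (bound 0.26) over all genes tested. Their summed level ran from 4421 to 15391 CPM in the dorsal libraries and 3.91 to 1519 CPM in the axon libraries.

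The promoters of 3 of the 5 called genes, those called with the block too, are shown because the factor MITF, which drives pigment genes, binds E-boxes such as CATGTG and CACGTG. The windows hold the 250 bases before the RefSeq start (GRCm38.p6), read 5′ to 3′ on the strand of the gene, with those letters on either strand in capitals (CACATG is CATGTG read on the other strand, and CACGTG reads the same on both). The Tyr window lies at chr7:87493513-87493762 on the minus strand, Tspan10 at chr11:120442381-120442630 on the plus strand and Dct at chr14:118052247-118052496 on the minus strand.
Tyr: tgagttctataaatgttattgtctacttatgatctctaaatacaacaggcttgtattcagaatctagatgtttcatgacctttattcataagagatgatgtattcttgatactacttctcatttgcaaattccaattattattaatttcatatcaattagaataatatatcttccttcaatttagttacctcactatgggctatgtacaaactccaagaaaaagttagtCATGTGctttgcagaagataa
Tspan10: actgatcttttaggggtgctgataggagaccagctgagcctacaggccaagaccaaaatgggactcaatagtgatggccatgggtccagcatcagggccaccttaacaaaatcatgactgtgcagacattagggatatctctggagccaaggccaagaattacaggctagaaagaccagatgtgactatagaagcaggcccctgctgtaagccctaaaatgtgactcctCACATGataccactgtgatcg
Dct: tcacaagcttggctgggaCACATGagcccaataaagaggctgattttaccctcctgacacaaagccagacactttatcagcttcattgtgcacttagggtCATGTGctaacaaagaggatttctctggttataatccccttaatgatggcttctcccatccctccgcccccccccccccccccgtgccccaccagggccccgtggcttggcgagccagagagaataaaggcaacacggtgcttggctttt
In both Tyr and Tspan10 the match began 21 bases before the start, and Dct held 2 matches, 232 and 150 bases before it. One of the 2 start windows of Rab27a held CACGTG 246 bases before the start, and the Gpnmb window held neither. Of all 32851 RefSeq windows of this length, 14.2% held CATGTG and 7.15% held CACGTG. A match of letters is a description and not a measured binding site.

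Tyr encodes tyrosinase, the rate-limiting enzyme of melanin synthesis, and lies at chr7:87424771-87493512 (mm10). It stood at 798, 668, 919.7, 612 and 427 CPM in the dorsal libraries and at 0 counts in all 5 axon libraries. Every dorsal library held many reads and no axon library held one, so the level in the dorsal libraries was at least 4219-fold the floor set for the axon libraries (edgeR adjusted p = 7.43e-08, 0.00483 with the block). Dct encodes dopachrome tautomerase, an enzyme further down the pathway, and its promoter drives the Cre used here. Its levels were 1175, 332, 924, 222 and 533 CPM in the dorsal and 8.13, 1.66, 19.9, 3.91 and 1.29 CPM in the axon libraries. Axon replicate 3 was the highest of its group and still far below the lowest dorsal library, and the log2 difference was 6.31 ± 0.81 (SE, edgeR adjusted p = 8.92e-04, 0.00483 with the block).

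Tspan10, a tetraspanin made in pigment cells, ranged widely among the dorsal libraries, at 307, 40.7, 665, 30.3 and 168 CPM, and had 0 counts in the axon libraries. The level in the dorsal libraries was at least 1492-fold higher by the same floor (edgeR adjusted p = 7.60e-04, 0.0478 with the block). Gpnmb, a melanosomal glycoprotein, stood at 225, 111, 492, 35 and 57.5 CPM against 0 counts, at least 1135-fold higher. Its adjusted p was 8.67e-04 in edgeR and 0.112 with the block, where the call was lost. Rab27a, the small GTPase that ties melanosomes to the actin network, stood at 112, 13.8, 164, 31.7 and 30.8 CPM against 0 counts (at least 434-fold, edgeR adjusted p = 0.0242, 0.479 with the block) and was called in 6 of the 10 fits that left out 1 library, losing the call without dorsal replicates 1, 3, 4 or 5. In these genes dorsal replicate 3 was the highest or near the highest library and replicate 4 mostly among the lowest.

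Some pigment genes were read in the axon region too. Pmel, which forms the fibrils of early melanosomes, was the most counted of the list at 7752, 4290.3, 8752, 2032 and 4027 CPM in the dorsal libraries and 1079, 1236, 819.6, 0 and 180.1 CPM in the axon libraries. The regions did not overlap, but the axon libraries spread from 0 to 1236 CPM and the difference did not pass (log2 2.83 ± 1.51, SE, edgeR adjusted p = 0.348). Trpm1, a cation channel of pigment cells, ran at 2124, 782, 2085, 1281 and 1331 CPM against 345, 0, 77.5, 0 and 129 CPM, again without overlap and without a call (adjusted p = 0.346). Tyrp1, the enzyme after Dct, stood at 319.7, 100.3, 655, 13 and 187 CPM against 0 counts in 4 axon libraries and 58.1 CPM in axon replicate 5 (adjusted p = 0.348).

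The pigment genes can be set beside markers of neural crest melanoblasts, which also make melanin. Sox10 and Foxd3 were at 0 in all 10 libraries, and Kit stood at 0, 20.9, 0.495, 0 and 0 CPM in the dorsal and 141, 0.0426, 0.680, 85.4 and 7.54 CPM in the axon libraries. Over the 10 melanoblast and neural crest genes the summed level ran from 43.4 to 257 CPM in the dorsal libraries and 505 to 1211 CPM in the axon libraries, and most of the axon sum was Fabp7. Of the 6 tested, 0 were called higher and 1, Fabp7, was called lower. Fabp7 is also made by glial progenitors and is described with them.

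**Figure D3:**
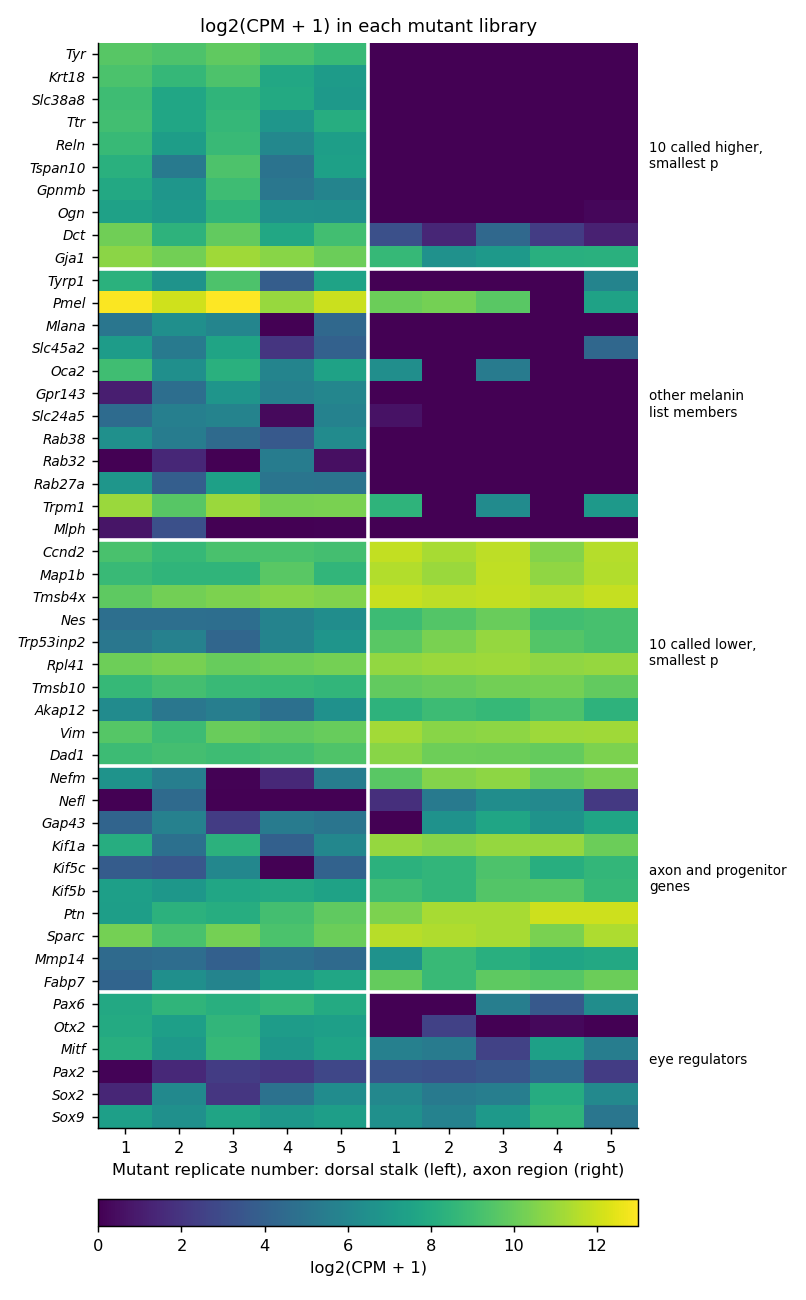
Levels of named genes (rows) in the 5 dorsal and 5 axon mutant libraries (columns), as log2(CPM + 1), with lighter cells for higher levels. The genes called higher are light in all 5 dorsal libraries and dark in the axon libraries, except Dct and Gja1, which are read in both, and axon replicate 4 has 0 counts of Pmel.

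Genes of RPE fate and function gave 2 calls among the 11 of 16 that were tested, both higher. Ttr, the carrier of thyroxine and of retinol-binding protein that the RPE secretes, stood at 537, 209, 408, 113 and 269 CPM in the dorsal libraries and had 0 counts in the axon libraries (at least 1891-fold, edgeR adjusted p = 1.45e-05, 0.0231 with the block). Rdh5, a retinol dehydrogenase of the visual cycle, stood at 130.5, 62, 185, 44.9 and 37.4 CPM against 0 counts (at least 566-fold, adjusted p = 0.00751, 0.395 with the block), with an overlap of 25.6% of its exon sequence with another gene and the call lost without dorsal replicate 3. The median log2 difference of the list was 3.35. DESeq2 called 6 of its genes higher, limma voom 4 and edgeR with the block 1. The transcription factors that set RPE fate did not pass in edgeR without the block. Otx2 stood at 248, 160.0, 369, 144 and 158 CPM in the dorsal and 0, 4.69, 0, 0.233 and 0 CPM in the axon libraries, with no overlap, and did not pass (edgeR adjusted p = 0.0585). Mitf stood at 285, 124, 411, 117 and 187 CPM against 49.8, 41.3, 4.96, 166 and 44.1 CPM. Axon replicate 4 lay inside the dorsal range of Mitf, the other 4 axon libraries lay below it, and the adjusted p was 0.182. Of 30 alternative fits, 8 called Otx2 and 0 called Mitf.

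Eye field and patterning genes gave no call in edgeR, without or with the block. DESeq2 called 1 eye field and 1 patterning gene higher (2 and 4 with the block). The limma voom fit called 2 eye field genes higher and 0 patterning genes. A newer edgeR method called 1 eye field gene higher and 1 patterning gene lower. Pax6, needed for the optic cup and its pigment layer, stood at 227, 357, 291, 396 and 246 CPM in the dorsal and 0, 0, 45.9, 11.5 and 80.5 CPM in the axon libraries, without overlap (edgeR adjusted p = 0.212). Of 30 alternative fits, 3 called Pax6. Of 11 eye field and retinal progenitor genes tested, 0 were called (2 were higher and 0 lower at an unadjusted p under 0.05), at a median log2 difference of 0.62. Of 15 dorsoventral patterning genes tested, 0 were called (1 higher and 1 lower at an unadjusted p under 0.05), at a median of 0.15. Pax2, the stalk and astrocyte progenitor factor, was low in both regions, at 0.0917, 1.79, 3.89, 3.17 and 5.78 CPM in the dorsal and 9.16, 8.14, 10.3, 22.7 and 4.04 CPM in the axon libraries (adjusted p = 0.701).

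Several genes outside the pigment lists were as one-sided. Krt18, a keratin of simple epithelia, stood at 645, 408, 665, 224 and 142 CPM in the dorsal libraries and had 0 counts in the axon libraries (at least 2567-fold, edgeR adjusted p = 1.45e-05, 0.0127 with the block). Slc38a8, a glutamine transporter, stood at 504, 205, 363, 240.3 and 128 CPM against 0 counts (at least 1774-fold, adjusted p = 1.45e-05, 0.0256 with the block). Reln, a secreted protein that guides migrating neurons, stood at 436, 149.6, 446, 65.3 and 156 CPM against 0 counts (at least 1543-fold, adjusted p = 8.47e-05, 0.0403 with the block). In all 3 genes dorsal replicates 1 and 3 were the highest libraries. Gja1, which encodes the gap junction protein connexin 43, differed in degree and not in presence. It stood at 1734, 1209, 2270.3, 1633 and 1095 CPM in the dorsal and 411, 93, 123, 295 and 304 CPM in the axon libraries, with every dorsal library above every axon library, and its log2 difference was 2.53 ± 0.35 (SE, adjusted p = 0.00136, 0.0276 with the block).

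Ogn, a small proteoglycan of connective tissue, was called higher in the dorsal stalk although it is a mesenchymal gene. It stood at 172, 124, 361, 89.6 and 86.5 CPM in the dorsal libraries and had counts in only 1 axon library, replicate 5, at 0.177 CPM (edgeR adjusted p = 8.82e-04, 0.0316 with the block). The rest of the periocular mesenchyme list ran the other way. Of 13 genes tested, 12 had negative differences and 0 of these were called (5 at an unadjusted p under 0.05), at a median log2 difference of -2.34 and a summed level of 180.2 to 486 CPM in the dorsal libraries and 629 to 2328 CPM in the axon libraries. Col3a1, a fibrillar collagen, stood at 3.85, 0, 5.51, 61.9 and 81.5 CPM in the dorsal and 540.1, 742, 469.6, 341 and 150.5 CPM in the axon libraries, without overlap (adjusted p = 0.182). The part of mesenchymal RNA in the genes lower in the dorsal stalk was not tested.

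Further genes called higher were on no gene list, among them Wls and Dkk1. Wls, which carries Wnt proteins to the cell surface, was called at a log2 difference of 4.24 ± 0.60 (SE, edgeR adjusted p = 0.00181, 0.0816 with the block). Dkk1, a secreted inhibitor of Wnt signalling, averaged 96.6 ± 20.9 CPM (SD, n = 5) in the dorsal libraries against 0 counts (at least 595-fold, adjusted p = 0.00382, 0.368 with the block). Both were named after their values were seen. The other genes called higher were Irs4, Sh3bgrl2, Vps33b, Cutc, Col8a1, Fras1, Polr3c and Slc6a15, of which Col8a1 was also called with the block. Of the 10 fits that left out 1 library, all 10 called Irs4, 9 called Col8a1 and Fras1, and 8 called Sh3bgrl2 and Polr3c. Slc6a15 was called in 4, Vps33b in 2 and Cutc in 0 of them.

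Of 15 proneural and 12 ganglion cell identity genes tested, edgeR called 1 each, Gadd45g and Elavl4, both higher in the dorsal libraries and neither with the block. DESeq2 called 8 proneural genes higher (9 with the block) and limma voom 6 (3 with the block). Of the ganglion cell identity genes, DESeq2 called 4 higher and 1 lower (3 and 1 with the block). The limma voom fit called 3 higher and 0 lower (1 and 1 with the block). Elavl4, an RNA-binding protein of neurons, stood at 42.2, 104, 41.4, 108 and 68.3 CPM against 0 counts in the axon libraries (at least 448-fold, edgeR adjusted p = 0.0140, 0.470 with the block) and was called in 7 of the 10 fits that left out 1 library, losing the call without dorsal replicates 2, 4 or 5. Gadd45g, a growth arrest gene of differentiating neural cells, stood at 106, 38.3, 96.1, 102 and 125 CPM against 0 counts (at least 576-fold, adjusted p = 0.00518, 0.373 with the block). Of the 15 proneural genes 14 had positive differences. Atoh7, the factor that starts ganglion cell fate, stood at 24, 405, 1.77, 43 and 0 CPM in the dorsal libraries and had 0 counts in the axon libraries. Dorsal replicate 2 held most of its reads, and the difference did not pass (adjusted p = 0.0860). Miat, a nuclear long noncoding RNA of neural cells, stood at 83.2, 134, 64.3, 170.4 and 97.8 CPM against 0, 0, 0, 0.175 and 0 CPM, a ratio of 3495 (95% Poisson counting interval 1196 to 16946) with an adjusted p of 0.00382 (0.0641 with the block), and 3 other genes together overlap 30.4% of its exon sequence. All 3 axon reads of Miat lay in axon replicate 4, and the interval covers counting error of reads only, not the spread between embryos. Miat was the only edgeR call among 8 nuclear-retained noncoding RNAs. Malat1, the most counted of them, stood at 3499, 675, 2908, 2055 and 2507 CPM against 1577, 698, 1069.7, 2038 and 542 CPM and was not called (adjusted p = 0.295).

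Among markers of neuronal cell bodies, Pou4f2, the ganglion cell factor, was at 0 in all 10 libraries, Isl1 reached 0.409 CPM in axon replicate 4 and was at 0 in the other 4 axon libraries, and Elavl3 and Elavl4 were at 0 in all 5 axon libraries. Of the 12 ganglion cell identity genes, 5 (Elavl4 among them) were higher and 2 lower at an unadjusted p under 0.05. The summed level of the list ran from 99.3 to 248 CPM in the dorsal libraries and 86.5 to 762 CPM in the axon libraries, and most of the axon sum was Sncg. Tubb3, a neuronal tubulin, had 3 counts over the 5 axon libraries and stood at 73.8, 122, 0.0707, 104 and 35.2 CPM in the dorsal libraries, a ratio of 2132 (95% Poisson counting interval 729 to 10337) that did not pass (edgeR adjusted p = 0.0644). That interval covers counting error of reads only, not the spread between embryos. Of 18 presynaptic genes edgeR called 0 (5 higher and 0 lower at an unadjusted p under 0.05, median log2 difference 1.72), and of 19 axon adhesion and guidance genes it called 0 (4 higher and 1 lower at an unadjusted p under 0.05, median 1.44). DESeq2 called 3 presynaptic genes higher and 0 lower, and 2 adhesion and guidance genes higher and 1 lower.

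Of 26 neurofilament and axonal cytoskeleton genes tested, edgeR called 2 lower in the dorsal stalk, Map1b and Trp53inp2, and 0 higher, while DESeq2 called 3 lower and 3 higher. Map1b, a microtubule-associated protein of growing axons, stood at 441, 361, 367, 830.2 and 377 CPM in the dorsal and 2920.4, 2134, 3415, 1822 and 2883 CPM in the axon libraries. Dorsal replicate 4 was the highest of its group and still below the lowest axon library, and the log2 difference was -2.66 ± 0.25 (SE, edgeR adjusted p = 4.82e-05, 0.0115 with the block). Trp53inp2, whose messenger RNA is known to be carried into axons of sympathetic neurons, had the widest gap of all 61 lower genes, at 34.5, 50.7, 18.7, 57.4 and 110.3 CPM against 803, 1319, 1977, 726 and 592 CPM (log2 -4.51 ± 0.48, adjusted p = 1.57e-04, 0.0231 with the block). The groups did not come near each other. The median log2 difference of the 26 was -0.31, with 5 lower and 2 higher at an unadjusted p under 0.05.

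Nefm, the medium neurofilament chain, stood at 102, 46.9, 0.0707, 1.79 and 44.5 CPM in the dorsal and 803, 1522, 1758, 1058 and 1309 CPM in the axon libraries. The lowest axon library was far above the highest dorsal one, but the dorsal libraries differed widely among themselves, from 0.0707 CPM in replicate 3 to 102 CPM in replicate 1, and the difference did not pass (log2 -5.24 ± 1.45, SE, edgeR adjusted p = 0.182). Sncg, gamma-synuclein of ganglion cells, stood at 0, 42.6, 0, 15.4 and 0 CPM against 323, 85.2, 645, 467 and 197 CPM and did not pass either (adjusted p = 0.182). Other defining genes of axons were uneven. Nefl, the light neurofilament chain, stood at 0, 21.7, 0, 0 and 0 CPM in the dorsal and 2.35, 39.5, 82, 68.2 and 3.46 CPM in the axon libraries (adjusted p = 0.545), and Gap43, a protein of growth cones, at 17.4, 50.9, 4.03, 41.5 and 32.2 CPM against 0, 98.7, 198, 100.5 and 196 CPM, with no read in axon replicate 1 (adjusted p = 0.342).

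Among 18 axonal transport genes, 2 kinesins were called lower in the dorsal stalk. Kif5b, a heavy chain of conventional kinesin found in most cells, stood at 161, 116, 204, 227 and 180.4 CPM in the dorsal and 499.5, 381, 728, 748 and 412 CPM in the axon libraries (log2 -1.82 ± 0.27, SE, edgeR adjusted p = 0.00273, 0.0129 with the block). Kif1b stood at 120.2, 89.4, 141, 145 and 65 CPM against 254, 214, 521, 321 and 324 CPM (adjusted p = 0.0341, 0.145 with the block) and was called in 2 of the 10 fits that left out 1 library, those without axon replicate 1 or 2. The neuronal kinesins Kif1a and Kif5c had wider gaps but more spread. Kif1a stood at 277, 26.7, 330.4, 14.8 and 63.1 CPM in the dorsal and 1957, 1574, 1985, 1973 and 1074 CPM in the axon libraries (log2 -3.77 ± 0.86, adjusted p = 0.123, 0.0519 with the block). Kif5c stood at 12.6, 10.4, 63.6, 0 and 16.2 CPM against 332, 380.0, 655, 286 and 393 CPM (adjusted p = 0.0816).

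Genes of stalk and astrocyte progenitors were the second group on the axon side. Of 18 tested, 5 were called lower in the dorsal stalk (Nes, Vim, Fabp7, Slc1a3 and Ptn) and 0 higher, and Nes, Vim and Ptn were also called with the block. The median log2 difference was -1.32, beside 0.33 over all genes. Their summed level ran from 2243 to 4449 CPM in the dorsal libraries and 7209 to 11244 CPM in the axon libraries.

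Nes, the intermediate filament of neural progenitors, stood at 26, 26, 25.1, 55.2 and 81.3 CPM in the dorsal libraries and 475, 735, 1059, 536 and 591 CPM in the axon libraries. Even the highest dorsal library was far below the lowest axon library (log2 -4.18 ± 0.41, SE, edgeR adjusted p = 6.18e-05, 0.00989 with the block). Vim, the intermediate filament of glial progenitors and mesenchyme, stood at 749, 489, 1035, 899.9 and 1020.2 CPM against 2365, 1662, 1794, 2181 and 2265 CPM, without overlap (log2 -1.47 ± 0.18, adjusted p = 6.95e-04, 0.00751 with the block). Fabp7, a fatty acid binding protein of radial glia, stood at 17.2, 86.7, 57.5, 139.7 and 204 CPM against 989, 455, 875, 762 and 1065 CPM (log2 -3.22 ± 0.50, adjusted p = 0.00382, 0.0552 with the block). Slc1a3, the glial glutamate transporter GLAST, stood at 117, 87.6, 85.8, 117 and 173 CPM against 172, 401, 427, 544 and 221 CPM, where the highest dorsal and the lowest axon value overlapped narrowly (adjusted p = 0.0356, 0.311 with the block), and was called in 2 of the 10 fits that left out 1 library, those without axon replicate 1 or 5. The transcription factors of these cells were not called. Sox2 stood at 1.65, 70.8, 3.11, 29.2 and 80.1 CPM in the dorsal and 66.3, 40.3, 46, 266 and 68.3 CPM in the axon libraries, with axon replicate 4 the highest (adjusted p = 0.503). Sox9 stood at 159, 90.6, 192, 119 and 157 CPM against 92, 53, 125, 351 and 32.8 CPM, again highest in axon replicate 4 (adjusted p = 0.998), and Hes1, a Notch target, at 78.4, 90.7, 70.6, 101 and 93.7 CPM against 209, 87.3, 163, 208 and 186 CPM (adjusted p = 0.182).

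Ccnd2, which encodes a D-type cyclin, had the smallest p of the lower genes. It stood at 618, 414, 613, 606 and 549 CPM in the dorsal and 3559.6, 2523, 3317, 1521 and 3026 CPM in the axon libraries, without overlap (log2 -2.50 ± 0.21, SE, edgeR adjusted p = 1.45e-05, 0.00483 with the block). Ccnd1, its close relative, overlapped between the regions, at 92.7, 876, 255, 191 and 228 CPM against 333, 666, 463, 373 and 655 CPM (adjusted p = 0.406). Proliferation genes as a list gave 0 calls of 19 (2 higher and 2 lower at an unadjusted p under 0.05), at a median log2 difference of -0.07 that changed sign, to 0.01, under another scaling (RLE). Of the 19, 2 had every dorsal library above every axon library and 0 the reverse, beside 3.12% and 1.06% of all genes. Mki67, the Ki-67 gene, stood at 392, 416, 330.2, 301 and 472 CPM in the dorsal and 109, 249, 228, 153 and 54.9 CPM in the axon libraries, without overlap (adjusted p = 0.182). Top2a stood at 696, 715, 440.1, 677 and 646 CPM against 848, 573, 571, 1015 and 778 CPM (adjusted p = 0.200). Junction and polarity genes of the neuroepithelium gave 0 calls of 14 (2 higher and 1 lower at an unadjusted p under 0.05), at a median of 0.11.

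**Figure D4:**
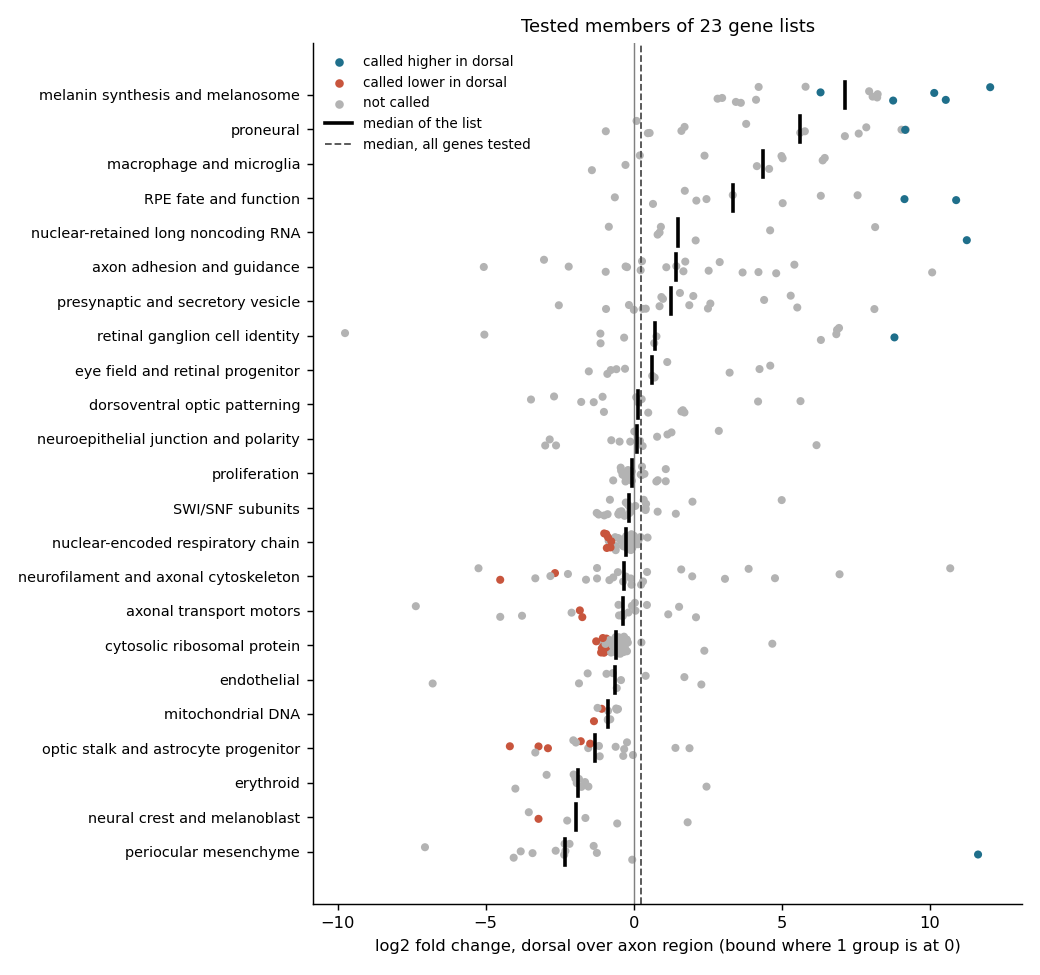
Log2 differences (dorsal over axon region, x axis) of the tested members of 23 gene lists, with members without a read in 1 region drawn at their bound, called genes coloured, the median of each list as a bar and the median of all genes tested (0.26 with bounds) dashed. The melanin list lies to the right, with 5 of 16 called higher, and 72 of 75 ribosomal protein genes lie to the left of 0.

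Ribosomal protein genes differed by small but even amounts. Of 75 tested, 14 were called lower in the dorsal stalk and 0 higher (7 lower with the block), 72 had negative differences, and the median log2 difference was -0.59. They took 4.59% ± 0.360 of the dorsal and 6.26% ± 0.247 of the axon counts (SD, n = 5), without overlap (exact permutation p = 0.00794, two-sided, 0.0146 adjusted over 11 measures). Rpl41 stood at 1101, 1293, 1000.1, 1127 and 1224 CPM in the dorsal and 1914, 2142, 2179.9, 1863 and 1997 CPM in the axon libraries (log2 -0.995 ± 0.116, SE, edgeR adjusted p = 4.41e-04, 0.0115 with the block). Rps19 and Rps29 differed by -1.08 and -1.10, and the translation elongation factor gene Eef1a1 by -0.67 (adjusted p = 0.00100). The log2 differences are edgeR values after scaling between libraries (TMM), while CPM and percentages are plain shares of a library. The axon libraries had fewer genes and more counts in their top genes. The number of ribosomal calls changed with the method. Under another scaling (RLE) 9 were lower. DESeq2 called 17 lower and 1 higher, and with the block 0 lower and 1 higher. The limma voom fit called 17 lower, and 25 with the block.

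Mitochondrial RNA was also a larger share of the axon libraries, at 10.2% ± 2.04 against 5.81% ± 1.25 of the counts (SD, n = 5). Axon was the higher region for all 5 numbers, the ranges overlapped over all 10 libraries but not within a batch, and an exact permutation test gave p = 0.0159 (two-sided, 0.0249 adjusted over 11 measures). Of the 15 genes on mitochondrial DNA counted here, 10 were tested and all 10 had negative differences, at a median of -0.87. Called were mt-Co1, a subunit of cytochrome c oxidase, at 3643, 2612, 3485, 4708 and 3912 CPM in the dorsal and 5273, 6387, 8195, 7153 and 7099 CPM in the axon libraries (log2 -1.08 ± 0.14, SE, edgeR adjusted p = 0.00100, 0.0161 with the block), and the ribosomal RNA gene mt-Rnr1 (log2 -1.34 ± 0.18, adjusted p = 0.00100, 0.0231 with the block). mt-Rnr2, the larger ribosomal RNA, was not called without the block (adjusted p = 0.0855) and was called with it (adjusted p = 0.0291), and it was called by DESeq2 and by limma voom without it. Of 38 respiratory chain genes of the nucleus, 6 were called lower and 0 higher (1 lower with the block), at a median of -0.27. Cox6a1, another subunit of cytochrome c oxidase, stood at 1164, 1286, 1198, 943 and 1016 CPM in the dorsal and 1551, 2089.9, 2152, 2222 and 1416 CPM in the axon libraries (adjusted p = 0.00539, 0.0394 with the block).

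Other genes called lower were on no gene list. Tmsb4x, thymosin beta 4, which holds actin monomers, stood at 863, 1218, 1382, 1667 and 1459 CPM in the dorsal and 3835, 3372, 3622, 2967 and 3738 CPM in the axon libraries (log2 -1.59 ± 0.15, SE, edgeR adjusted p = 5.46e-05, 0.00998 with the block). Its relative Tmsb10 stood at 413, 559, 453, 422 and 373 CPM against 931, 1034, 1210.2, 1266 and 924 CPM (log2 -1.45 ± 0.17, adjusted p = 4.41e-04). The ferritin heavy chain gene Fth1 differed by -1.25 ± 0.18 (log2, SE, adjusted p = 0.00206). Akap12, a scaffold for protein kinase A, stood at 75.3, 34.5, 45.7, 27.2 and 93.8 CPM in the dorsal and 340.5, 482, 414, 668 and 335 CPM in the axon libraries (log2 -3.20 ± 0.39, adjusted p = 6.33e-04, 0.0341 with the block). Dad1, a subunit of the enzyme that adds sugars to new proteins, stood at 477, 558, 491, 555 and 673 CPM against 1679, 1123, 1067, 971 and 1378 CPM (log2 -1.35 ± 0.17, adjusted p = 8.92e-04).

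Markers of blood, vessels and macrophages were not called by edgeR. Haemoglobin genes took 0.336% ± 0.272 of the dorsal and 1.11% ± 1.28 of the axon counts (SD, n = 5), with axon replicate 3 at 3.30% (exact permutation p = 0.183, two-sided). With 1 library left out, the exact permutation p ran from 0.0238 (without axon replicate 2) to 0.389 (without dorsal replicate 2). It was 0.349 without axon replicate 3. The share was higher in the axon library in all 5 pairs of the same number (exact sign-flip p = 0.063, the smallest that 5 pairs allow). Of 10 erythroid genes, 9 had negative differences and 0 were called by edgeR (0 higher and 2 lower at an unadjusted p under 0.05), while limma voom with the block called 5 lower, at a summed level of 176 to 7288 CPM in the dorsal libraries and 609 to 33122 CPM in the axon libraries. Of 10 endothelial genes 0 were called (0 higher and 1 lower at an unadjusted p under 0.05), at a median log2 difference of -0.64 and a summed level of 30.5 to 590.3 CPM in the dorsal libraries and 0.584 to 426 CPM in the axon libraries. Of 10 macrophage genes 6 had no read in the axon libraries and edgeR called 0, while DESeq2 called 3 higher. At an unadjusted p under 0.05 in edgeR, 6 were higher and 0 lower, beside 3017 higher and 684 lower of all 15780 genes tested. The summed level of the macrophage genes ran from 6.65 to 187 CPM in the dorsal libraries and 0 to 164 CPM in the axon libraries. The part of these cells in the other differences was not tested.

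A further question was whether the region difference of the mutants was that of the controls, which share no library with them. In the controls 11 of 15899 genes were called (0.0692%), 1 higher and 10 lower in the dorsal stalk, and 8 of them were among the 86 of the mutants. Of the mutant genes, 21 of the 24 higher genes with a value in the controls, and 58 of the 61 lower, had the same sign there. Over all genes tested in both, the same sign was found for 63.5% of those with a positive and 51.0% of those with a negative difference in the mutants. The difference between the 2 genotypes was then tested by an interaction term with batch over 18 libraries. It called 2 of 16292 genes (0.0123%), Ptn and Sparc, and both were lower in the dorsal stalk of the mutants and were not called in the controls.

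Ptn encodes pleiotrophin, a secreted growth factor that binds heparin, and lies at chr6:36714929-36810220 (mm10). In the mutants it stood at 157, 326, 274, 562 and 921 CPM in the dorsal and 1408, 2529.7, 2495, 4177 and 4104 CPM in the axon libraries. In the controls it stood at 1302, 1589, 2364 and 1910.0 CPM in the dorsal and 1159, 2159, 2309.9 and 2328 CPM in the axon libraries. The mutant dorsal libraries were all below all 8 control libraries and all mutant axon libraries, and levels were higher in mutants 4 and 5 (batch B) than in mutants 1 to 3 (batch A) in both regions. The log2 difference in the mutants was -2.90 ± 0.48 (SE, edgeR adjusted p = 0.0213, 4.32e-04 with the block), and its call was lost without dorsal replicate 2 or without dorsal replicate 4. The interaction was -2.71 ± 0.34 (SE, adjusted p = 0.00124, 2.70e-04 with the block) and was called in all 18 fits that left out 1 library, but not without the batch term (adjusted p = 0.265). Of the other tools, DESeq2 called it (adjusted p = 7.58e-10) and limma voom did not (adjusted p = 0.909).

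Sparc, a matrix glycoprotein that modulates the contact of cells with collagen, lies at chr11:55394500-55423183 (mm10). It stood at 1261, 618, 1235, 643 and 1091 CPM in the dorsal and 3128, 2824, 2559.6, 1332 and 2725 CPM in the axon libraries of the mutants, where only axon replicate 4 came near the dorsal range. The controls stood at 1578, 1997, 1958 and 2107 CPM in the dorsal and 1451, 1207, 1055 and 1553 CPM in the axon libraries, with every dorsal library above every axon library. The log2 difference in the mutants was -1.56 ± 0.24 (SE, edgeR adjusted p = 0.00382, 0.0115 with the block). The interaction was -1.91 ± 0.31 (SE, adjusted p = 0.0347, 0.0253 with the block) and was not called without the batch term (adjusted p = 0.0764). It was called in 6 of the 18 fits that left out 1 library, which were those without mutant dorsal replicate 1, 3 or 5, mutant axon replicate 3 or 4, or control dorsal replicate 1, and the adjusted p over the 18 ran from 0.00219 to 0.177. DESeq2 called it too (adjusted p = 7.83e-05) and limma voom did not (adjusted p = 0.878).

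Mmp14, a membrane-bound matrix protease, was the only one of the 13 genes that the study discusses to be called between the regions of the mutants. It stood at 21.2, 24.2, 14.6, 27.1 and 21.5 CPM in the dorsal and 96.4, 425, 297, 202 and 232 CPM in the axon libraries (log2 -3.72 ± 0.49, SE, edgeR adjusted p = 0.00100, 0.0449 with the block). The 5 dorsal libraries lay close together while the axon libraries ran from 96.4 to 425 CPM. The controls overlapped, at 47.8, 74.9, 73.3 and 115 CPM in the dorsal and 53.6, 95.7, 88.9 and 62.2 CPM in the axon libraries, but the interaction did not pass (log2 -3.58, edgeR adjusted p = 0.337). DESeq2 called it (adjusted p = 4.19e-08) and limma voom did not (adjusted p = 0.351). Nes, in contrast, was lower in the dorsal stalk in both genotypes. The controls stood at 47.4, 97.1, 76.2 and 114 CPM in the dorsal and 991, 412, 627 and 353 CPM in the axon libraries (log2 -3.07, edgeR adjusted p = 0.0141), and the interaction did not pass (adjusted p = 0.522).

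The pigment genes were read in control dorsal libraries too, unevenly. Tyr stood at 122, 0, 0 and 43.7 CPM in the dorsal and 0, 0.0546, 0 and 0 CPM in the axon libraries of the controls. Dct stood at 304, 30.6, 1.95 and 171 CPM against 259.6, 2.29, 43.7 and 5.27 CPM and Gpnmb at 1.25, 0, 0 and 38 CPM against 45.8, 0, 0 and 1.65 CPM. None of the 3 was called in the controls, and the interactions did not pass (adjusted p = 0.804 for Tyr, 0.337 for Dct and 0.337 for Gpnmb). An unadjusted interaction p under 0.05 was found for 28 of the 86 genes (32.6%), beside 10.3% of all genes, which is a description since the 86 were chosen on the mutant libraries.

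**Figure D5:**
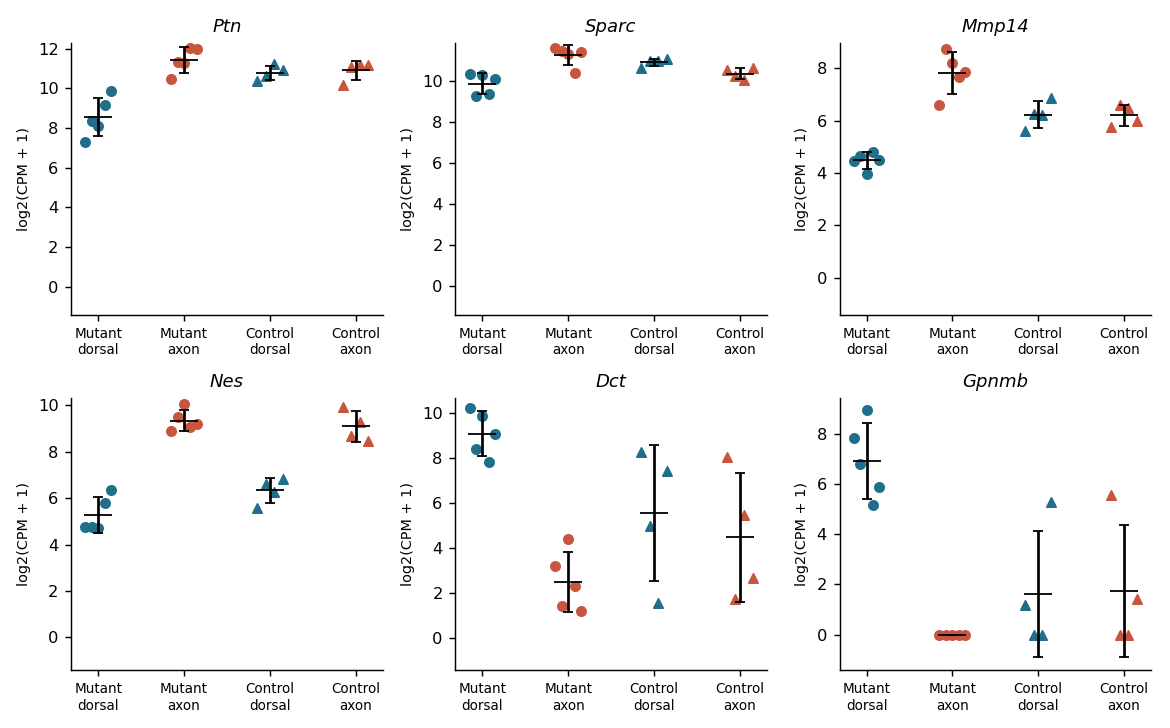
Log2(CPM + 1) of Ptn, Sparc, Mmp14, Nes, Dct and Gpnmb in the dorsal (blue) and axon (red) libraries of mutants (circles, n = 5) and controls (triangles, n = 4), with mean ± SD. In the mutants all 6 genes separate the regions, and in the controls Nes is lower and Sparc higher in every dorsal library while Ptn, Mmp14, Dct and Gpnmb overlap.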

How the data were processed

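Laser-captured pieces of optic stalk were sequenced after PCR amplification, and the authors aligned the reads to mm10 with STAR inside Seq2Science and counted them per gene with HTSeq. The deposited values are whole-number counts without normalization. The tool versions, gene annotation and strand setting are not given in the sources used here. Gene IDs were matched to GENCODE M21 for names and exonic sharing (55227 of 55487 genes).

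A gene was tested when 3 or more of the 27 libraries of the series held over 10 of its counts and the fitted libraries held any. The test was edgeR 4.0.16 (quasi-likelihood, TMM scaling, robust) in R 4.3.3, and a call needed an adjusted p (Benjamini-Hochberg) under 0.05 and a log2 difference above 0.58 in size, the thresholds given in the study's methods. The p-values measure the spread between these libraries, 1 per embryo and region, and PCR reads without molecular identifiers are not independent molecules, so floors and Poisson intervals cover counting error only. The fit with the replicate number as a block stands beside the unblocked one. As a check of the pairing, deviations from the region means were correlated over 8981 genes between libraries of the same number, and r ran from 0.0070 to 0.0504, under the 0.1 set as a sign of pairing. Between libraries of different numbers r ran from -0.0371 to 0.0329. Of the 5 dorsal libraries 2, and of the 5 axon libraries 3, were closest to their own number. The interaction of genotype and region was fitted over 18 libraries with batch as a term. Library measures were tested by exact permutation. No libraries held identical values.

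Named genes were up to 10 called genes per direction with the smallest p, up to 5 per direction called in both fits with the widest difference, the 13 genes the study discusses, and per gene list up to 3 members with the smallest p and the most counted member. Ptn and Sparc were added for the interaction, and members and other called genes outside this rule, such as Wls, Dkk1, Rab27a and Slc1a3, were named after their values were seen. The comparison and the 24 gene lists (462 genes) were chosen with earlier results of these data known. Alternatives were DESeq2 1.42.0, limma voom (limma 3.58.1), RLE scaling, a newer edgeR method, other filters, a batch term, mitochondrial genes left out, more libraries in the fit, each batch alone and each library left out. The edgeR fits without and with the block, DESeq2 and limma voom were also run on simulated data of the mutant comparison. The interaction fit and the exact tests were not. Promoter sequences came from RefSeq (GRCm38.p6).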

Additional observations from a re-analysis of the deposited data

Results flagged for a closer look

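In 7 of 88 checks, 1 library stood apart from the other 4 of its group. A rate of about 1 in 20 by chance holds for normal values only and cannot be set against these checks. A group at 0 in every library cannot be flagged, and a group with 4 libraries at 0 and 1 above it, as for Ogn, always is. On the log2(CPM + 1) scale these were Ogn in axon replicate 5 (0.236, with the other 4 at 0), Map1b in dorsal replicate 4 (9.7, above the others), Smarca4 in axon replicate 2 (5.11, below the others), Otx2 in axon replicate 2 (2.51, above the others), Sox2 in axon replicate 4 (8.06, above the others) and Hes1 in axon replicate 2 (6.47, below the others). The share of counts from haemoglobin genes was 3.30% in axon replicate 3 and between 0.0609% and 0.951% in the other 4 axon libraries.

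For 2 genes the difference between the regions itself differed between mutants and controls in the edgeR fit with the batch term. The interaction (log2, mutant difference minus control difference) was -2.71 for Ptn (edgeR adjusted p = 0.00124) and -1.91 for Sparc (edgeR adjusted p = 0.0347). DESeq2 called both. Neither was called by limma voom, or by edgeR without the batch term (adjusted p = 0.265 for Ptn and 0.0764 for Sparc). Of 18 fits that left out 1 library, 18 called Ptn and 6 called Sparc.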

How the results depend on the processing

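None of the named genes that were called changed direction under any alternative that was run. The number of genes called did change with the processing. With the replicate number as a block, 10 genes were higher and 32 lower in the dorsal stalk, and with both libraries of 1 number left out of that paired fit, 2 to 4 were higher and 4 to 14 lower. DESeq2 gave 1371 higher and 200 lower genes (2723 and 174 with the block). The limma voom fit gave 670 higher genes, and with the block 325 higher and 100 lower. Higher genes numbered 62 with the newer edgeR method, 98 with the edgeR filter on expression (filterByExpr), 71 with all 15 mutant libraries in the fit and 66 with all 27. Leaving out 1 library gave 18 to 35 higher and 40 to 61 lower genes, the lowest without dorsal replicate 5 (40 lower). Batch A alone gave 10 higher and 10 lower genes, and batch B, with 2 libraries per region, gave 0 of each in edgeR. The batch term, RLE scaling, mitochondrial genes left out and no filter on counts changed neither count by over 1.5 times. RLE scaling moved the median log2 difference of all genes from 0.33 to 0.43 and the block moved it to 1.42. The interaction called 0 genes without the batch term, 1063 by DESeq2, 50 by limma voom, 4 by the newer edgeR method, 59 without a filter and 1 to 4 with 1 library left out. With libraries paired by number, the differences of 3430 genes detected, -4.42 percentage points of mitochondrial counts and -1.67 of ribosomal protein counts had an exact sign-flip p of 0.063, the smallest that 5 pairs can give. The cause of these changes was not tested. Genes with no read in the axon libraries have only a lower bound on their fold.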
